A study of Mus musculus with 8 samples.

Results

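The lysosomal set described here comprised 41 genes that encode hydrolases of the lysosome, proteins of its membrane, the receptors that sort hydrolases to it and the transcription factors TFEB and TFE3. They were taken by gene name from a deposited table of 27534 genes, and each name matched a single entry. The counts came from bulk RNA sequencing of isolated pancreatic islets of C57BL/6J mice, cultured for 72 h in RPMI 1640 with 10% FBS. In all, 4 libraries came from islets in 20 mM glucose (high glucose) and 4 from islets in 7.5 mM glucose (low glucose). No genotype, age or sex is given in the labels, and all islets were cultured, so that neither group represents freshly isolated islets. The series concerns IRE1α and expansion of the Golgi in early β-cell compensation, and the comparison addresses which transcripts differ after prolonged high glucose.

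Lysosomal hydrolases are made in the endoplasmic reticulum and receive a mannose 6-phosphate tag in the Golgi, by which the receptors encoded by M6pr and Igf2r carry them to endosomes. Sortilin, encoded by Sort1, and LIMP-2, encoded by Scarb2, carry selected cargo without that tag. The lysosomal membrane is lined by the glycoproteins LAMP1 and LAMP2, and TFEB and TFE3 activate many lysosomal genes through E-box sequences when they are in the nucleus. In β cells the lysosome also degrades insulin granules.

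The depth was 20516328 to 24905499 counts per high glucose library and 19543045 to 24949515 counts per low glucose library. The β-cell genes Ins1 and Ins2 accounted for 17.3% to 21.7% of each high glucose library, against 17.2% to 22.7% of each low glucose library, and each of 9 β-cell markers had counts in every library. Both libraries numbered 2 were the highest of their groups for many of the lysosomal genes, as described below. Over all genes, low glucose replicate 2 stood apart from its group, with a chi-square per gene of 51.1 to 60.9. Between the other low glucose libraries it was 14.1 to 31.9. High glucose replicate 2 held both the smallest value of its group, 25.5 with replicate 3, and the largest, 57.0 with replicate 4. With replicate 1 its value was 41.5. Levels are given in CPM, counts relative to the library size as scaled by the TMM method, and levels of different genes are compared only in the authors' FPKM, which divides by gene length. Fold changes are high over low glucose, "rose" and "fell" are used for genes past an adjusted p of 0.05 in edgeR over all 15442 genes tested, and errors are SD with n = 4 per group unless stated. The labels do not say whether the libraries of a group came from separate mice, so p-values may measure technical spread only.

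All 41 genes had enough counts to be tested. In high glucose 7 rose, 14 fell and 20 did not pass. Over all genes tested 25.0% changed, 13.1% rising and 11.9% falling, against 51.2%, 17.1% and 34.1% of the lysosomal set. The share that rose was thus near that of all genes, and the share that fell was above it. The changes were small and near the usual size, with a median absolute log2 fold change of 0.25 in the set and 0.24 over all genes tested. The median log2 fold change of the set was 0.04 beside -0.01 for all genes tested, the values ran from -0.50 (Tfeb) to 0.75 (Glb1), and none reached 2-fold, as 5.92% of all genes did. The 21 genes that changed were also the 21 whose high and low glucose libraries did not overlap, a pattern seen for 27.3% of all genes tested (13.7% with high glucose above and 13.6% with it below). Same-number libraries deviated together from their group means for replicates 2, 3 and 4 (correlations of 0.449, 0.404 and 0.475), but hardly for replicate 1 (0.101). With the replicate number as a block 11 rose and 15 fell, beside 18.9% and 18.5% of all genes. Without both libraries numbered 2, a choice made after the data were seen, 11 rose and 14 fell, beside 16.4% and 15.8% of all genes. Without high glucose replicate 4 the count that fell was 9, beside 8.87% of all genes. With library size alone in place of TMM 5 rose and 15 fell, beside 10.4% and 17.1% of all genes.

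**Figure D1:**
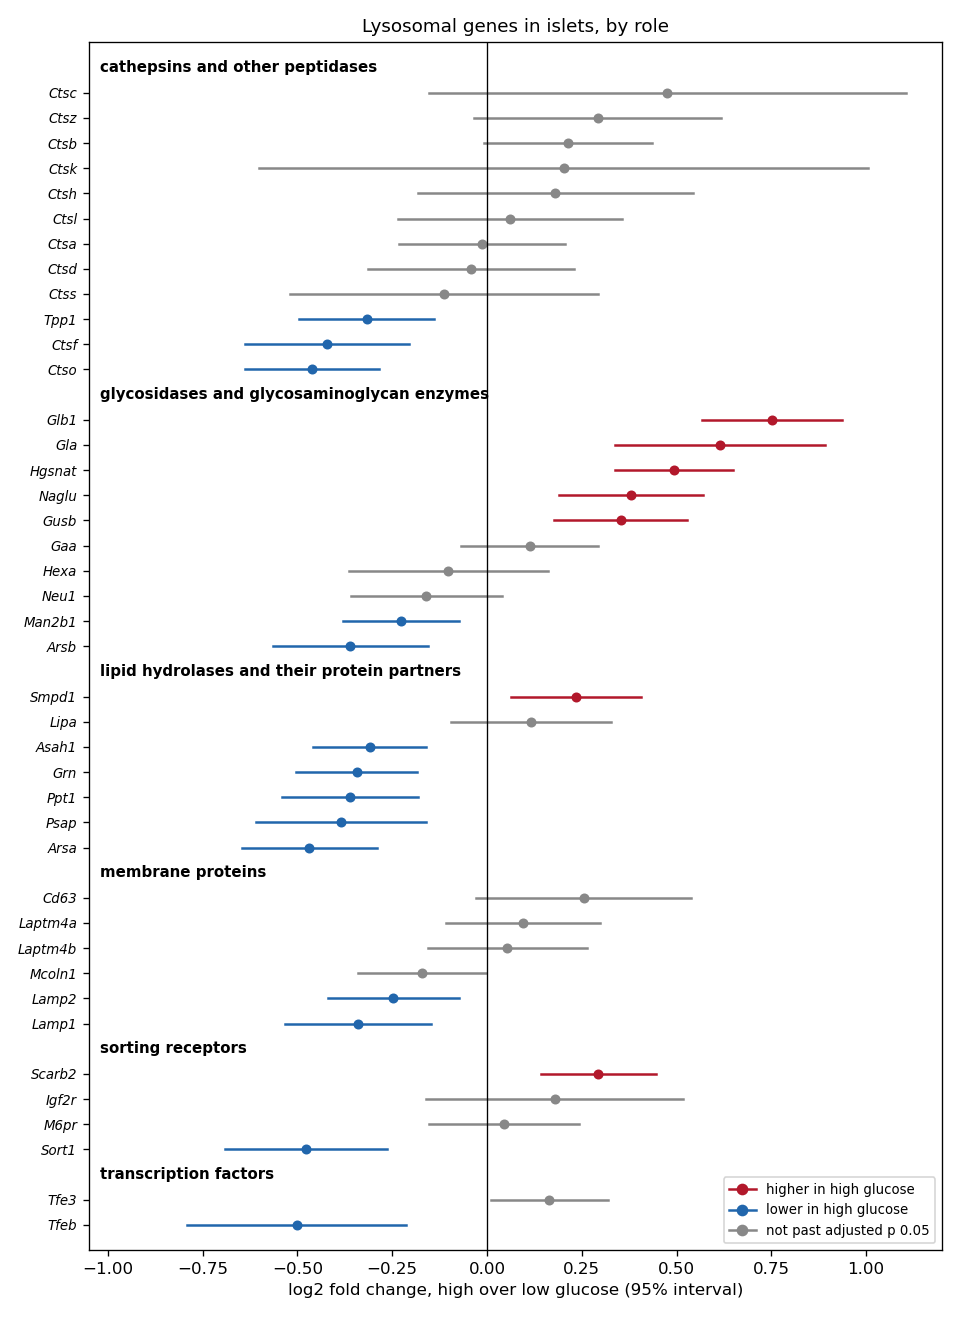
Log2 fold change of each of the 41 lysosomal genes, high over low glucose, with its 95% interval (horizontal axis), grouped by role (vertical axis); red genes rose, blue genes fell and grey genes did not pass an adjusted p of 0.05. Of 10 glycosidases and glycosaminoglycan enzymes 5 rose, and of 7 lipid hydrolases and partners 5 fell.

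By role, the glycosidases and glycosaminoglycan enzymes held 5 genes of 10 that rose and 2 that fell, and the lipid hydrolases with their protein partners held 5 of 7 that fell and 1 that rose. Of 12 cathepsins and other peptidases 3 fell and none rose. Of 6 membrane proteins 2 fell, of 4 sorting receptors 1 rose and 1 fell, and of the 2 transcription factors 1 fell. The peptidases' share that changed, 25.0%, equalled the 25.0% of all genes tested, whereas 70.0% of the glycosidases and glycosaminoglycan enzymes and 85.7% of the lipid genes changed. The differences between roles were not tested.

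Tfeb fell and Tfe3 did not pass. Tfeb (ENSMUSG00000023990, GRCm38 chromosome 17, 47737030 to 47792419, + strand) had 7.49, 5.87, 6.36 and 5.77 CPM in the high glucose libraries, against 9.05, 10.1, 8.60 and 8.39 CPM in the low glucose libraries. The groups did not overlap, and the gene was 1.42-fold lower in high glucose (log2 fold change -0.50 ± 0.13 (SE), adjusted p = 0.0175). Its adjusted p was 0.0512 without high glucose replicate 4 and 0.0569 without both libraries numbered 2. Tfe3 (ENSMUSG00000000134, GRCm38 chromosome X, 7762560 to 7775202, + strand) had 41.3, 46.1, 43.9 and 40.3 CPM in the high glucose libraries, against 40.4, 38.3, 38.4 and 35.9 CPM in the low glucose libraries. Every same-number pair was higher in high glucose, but the groups overlapped and the log2 fold change of 0.16 ± 0.07 (SE) did not pass (adjusted p = 0.117). Per length the transcript of Tfe3 was the more abundant, with 4.59 FPKM with high and 4.03 FPKM with low glucose, whereas Tfeb had 1.11 FPKM with high and 1.55 FPKM with low glucose.

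TFEB and TFE3 bind the E-box CACGTG, and the longer form GTCACGTG (CACGTGAC on the other strand) is the core of the element shared by many lysosomal promoters. Both forms were searched on both strands in the 250 bases before the start of each gene in RefSeq (GRCm38.p6), where 34 of the 41 genes had an entry. Every GTCACGTG contains a CACGTG. The E-box was present for 12 of 34 genes (35.3%), against 6.86% of all 27025 genes in the RefSeq table and 9.58% of the 11313 tested genes matched to it. The longer form was present for 9 of 34 (26.5%), against 2.11% and 3.70%. Palindromes of 8 and 10 bases around the E-box, with part or all of the longer form's flank on both sides, were searched too. The palindrome of 10 bases was present for 0 of 34 genes, against 0.27% and 0.557%. That of 8 bases was present for 5 of 34 (14.7%), against 0.907% and 1.67%. It stood before 1 of 6 genes that rose, 0 of 12 that fell and 4 of 16 that did not pass. The E-box stood before 3 of 6 genes that rose (Glb1, Gla and Naglu), 3 of 12 that fell (Lamp1, Arsa and Ctsf) and 6 of 16 that did not pass. Genes with several RefSeq starts were counted if any start had it. Among those that did not pass, Ctsa had it only before a later start. The E-boxes of Ctsa and Ctsl lie inside those genes by their deposited coordinates. These sequences upstream of the RefSeq starts, written 5′ to 3′ along the gene's strand, are shown because they belong to genes that moved in opposite directions; capitals mark the E-box, or the longer form where it is complete.
Glb1, rose, GRCm38 chr9:114401017-114401046, + strand: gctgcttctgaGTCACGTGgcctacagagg
Gla, rose, chrX:134601183-134601212, - strand: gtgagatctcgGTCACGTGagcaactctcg
Naglu, rose, chr11:101070008-101070037, + strand: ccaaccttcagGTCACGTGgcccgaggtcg
Lamp1, fell, chr8:13159061-13159160, + strand: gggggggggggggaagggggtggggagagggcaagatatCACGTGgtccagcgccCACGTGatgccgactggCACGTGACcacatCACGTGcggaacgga
Arsa, fell, chr15:89477425-89477454, - strand: cttcaactcagtGTCACGTGttgtctgctc
Ctsf, fell, chr19:4855075-4855104, + strand: accccgtggtcCACGTGcctcgcgtaaata

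The E-box began 48 bases before the RefSeq start of Glb1, 73 bases before that of Naglu, 16 before that of Arsa and 79 before that of Ctsf. Gla held E-boxes at 227 and 194 bases before its start, of which the nearer is shown. Gene starts differ between annotations: 26 of the 30 bases shown for Naglu lie in the gene's own exon in GENCODE M21, where the table also places the gene, and all 30 shown for Gla lie in an exon of a gene on the opposite strand. The Lamp1, Glb1 and Ctsf sequences shown hold no exon base, and that of Arsa holds 1. Lamp1 held 4, at 61, 45, 28 and 15 bases before its start, and the one at 28 bases was part of the longer form. The E-box thus lay before genes that rose, genes that fell and genes that did not pass, among the last Ctsd, Igf2r and Mcoln1 with 2 E-boxes each. The longer form stood before 3 of 6 genes that rose, 2 of 12 that fell and 4 of 16 that did not pass. The difference between these shares was not tested.

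Of the genes that act on TFEB and TFE3, those past the threshold in edgeR were lower in high glucose. Folliculin (Flcn) and its partners FNIP1 and FNIP2, with the Rag GTPases on the lysosomal surface, bring TFEB and TFE3 under control of mTORC1, and several of these genes are themselves known targets of the factors. Of 13 genes tested, namely 12 such genes and Mitf, a relative of the factors, 6 fell and none rose, beside 11.9% and 13.1% of all genes, and their log2 fold changes had a median of -0.27. Flcn had 50.3, 53.2, 54.4 and 47.6 CPM in the high glucose libraries, against 97.6, 97.2, 105 and 91.6 CPM in the low glucose libraries. It was 1.91-fold lower in high glucose (adjusted p = 1.49e-05). Fnip2 had 42.5, 42.2, 43.1 and 46.1 CPM in the high glucose libraries, against 105, 70.2, 111 and 90.4 CPM in the low glucose libraries, a 2.16-fold lower level in high glucose (adjusted p = 0.000153). For Rragd, which encodes a Rag GTPase, the values were 64.1, 65.8, 67.3 and 68.5 CPM in the high glucose libraries, against 109.7, 104, 117 and 111 CPM in the low glucose libraries, 1.66-fold lower (adjusted p = 3.13e-05). In each of these genes the lowest low glucose library lay above every high glucose library. Fnip1, Rragc and Lamtor1 (which overlaps Lrrc51), named here after their values were seen, were 1.48-fold, 1.42-fold and 1.23-fold lower. Lamtor2 was the 1 gene of this list higher at an unadjusted p below 0.05 (log2 fold change 0.38 ± 0.14 (SE)), and DESeq2 and limma-voom each called it higher. With the replicate block 7 genes of the list were lower and 2 higher, beside 18.5% and 18.9% of all genes.

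**Figure D2:**
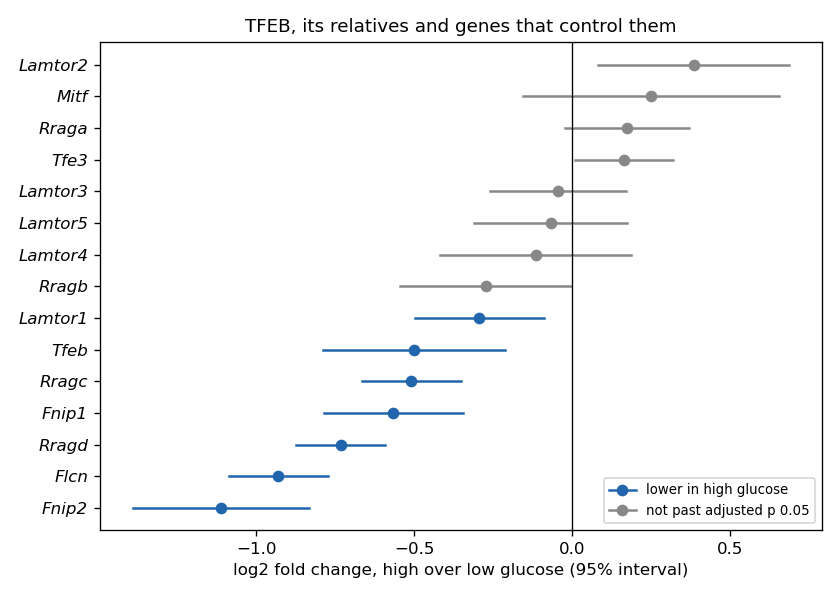
Log2 fold change, high over low glucose, with its 95% interval (horizontal axis) for Tfeb, Tfe3 and 13 tested genes that control or resemble them (vertical axis); blue genes fell and grey genes did not pass. The 3 lowest values are those of Fnip2, Flcn and Rragd.

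Among the enzymes that remove sugars, the largest rise was that of Glb1, which encodes β-galactosidase (ENSMUSG00000045594, GRCm38 chromosome 9, 114401076 to 114474898, + strand). It had 55.2, 60.1, 60.5 and 55.7 CPM in the high glucose libraries, against 31.0, 39.5, 32.8 and 34.2 CPM in the low glucose libraries. The lowest high glucose library was above the highest low glucose library, and the level was 1.68-fold higher in high glucose (log2 fold change 0.75 ± 0.08 (SE), adjusted p = 0.000134). Glb1 overlaps Tmppe on the same strand, so its count is uncertain. Gla, the α-galactosidase that trims globotriaosylceramide, had 24.7, 29.5, 24.4 and 22.5 CPM in the high glucose libraries, against 14.9, 20.5, 15.4 and 15.2 CPM in the low glucose libraries. Its groups did not overlap and it was 1.53-fold higher (adjusted p = 0.00473).

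A pair of enzymes that act in succession on heparan sulfate rose as well. Hgsnat, which acetylates terminal glucosamine on it, had 60.3, 62.1, 64.7 and 59.4 CPM in the high glucose libraries, against 41.4, 40.98, 44.5 and 48.2 CPM in the low glucose libraries. These groups were separated by more than their spread, at 61.6 ± 2.31 CPM with high glucose, against 43.8 ± 3.34 CPM with low glucose (log2 fold change 0.49 ± 0.07 (SE), adjusted p = 0.000641). Naglu, which removes the acetylated residue, had 48.0, 49.5, 48.5 and 44.1 CPM in the high glucose libraries, against 31.9, 40.5, 39.0 and 34.9 CPM in the low glucose libraries, 1.30-fold higher (adjusted p = 0.00855). Gusb, β-glucuronidase, had 95.7, 110.4, 103 and 98.4 CPM in the high glucose libraries, against 72.4, 88.6, 80.6 and 78.0 CPM in the low glucose libraries, 1.28-fold higher (adjusted p = 0.00861). In both, each high glucose library was above each low glucose library.

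Arsb, the sulfatase of dermatan sulfate, and Man2b1, the α-mannosidase of N-glycans, went the other way. Arsb had 50.7, 47.5, 53.5 and 46.9 CPM in the high glucose libraries, against 62.6, 53.6, 68.3 and 70.6 CPM in the low glucose libraries. It was 1.28-fold lower without overlap (adjusted p = 0.016), and its adjusted p was 0.0511, 0.0529 and 0.0521 without high glucose replicate 4, low glucose replicate 3 and low glucose replicate 4. Man2b1 had 102, 113, 111 and 102 CPM in the high glucose libraries, against 124, 117, 130.4 and 129 CPM in the low glucose libraries, 1.17-fold lower (adjusted p = 0.0356). Its call was lost without any one of 6 libraries, those of high glucose numbered 1, 3 and 4 and of low glucose numbered 1, 3 and 4, with adjusted p of 0.059 to 0.102. Hexa, a β-hexosaminidase subunit and the most abundant enzyme of this class at 106 FPKM with high and 113 FPKM with low glucose, had 194, 238, 220.4 and 205 CPM in the high glucose libraries, against 201, 289, 212 and 219 CPM in the low glucose libraries. Its groups overlapped and it did not pass (adjusted p = 0.578). Gaa, the acid α-glucosidase of glycogen, and Neu1, a sialidase, did not pass either, with log2 fold changes of 0.11 ± 0.08 (SE) and -0.16 ± 0.09 (SE). For Neu1 the adjusted p was 0.232, and 0.0484 with the replicate block, where it was lower in high glucose in 4 of 4 same-number pairs.

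Lipid hydrolases and their partners were mostly lower in high glucose. Psap encodes prosaposin, the precursor of the saposins that present sphingolipids to hydrolases, and was the most abundant gene of the set, with 503 FPKM with high and 647 FPKM with low glucose, rank 31 of all genes tested. It had 1239, 1509, 1528 and 1289.7 CPM in the high glucose libraries, against 1633, 2041, 1834 and 1763 CPM in the low glucose libraries. The groups did not overlap, and the level was 1.31-fold lower in high glucose (log2 fold change -0.39 ± 0.10 (SE), adjusted p = 0.0183). The adjusted p was 0.0555 without high glucose replicate 1 and 0.0528 without high glucose replicate 4.

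Asah1, acid ceramidase, had 189, 199.8, 203 and 182 CPM in the high glucose libraries, against 231, 249, 237 and 242 CPM in the low glucose libraries. It was 1.24-fold lower (adjusted p = 0.00698), with a gap between the groups wider than the range of either. Arsa, the sulfatase of sulfatide, had 31.6, 34.7, 30.8 and 32.8 CPM in the high glucose libraries, against 41.6, 51.3, 43.5 and 43.5 CPM in the low glucose libraries, 1.38-fold lower (adjusted p = 0.00192). It overlaps C230037L18Rik on the opposite strand, and with the strand setting not given the reads of the pair cannot be told apart. Ppt1, which removes palmitate from proteins, had 58.1, 66.7, 59.9 and 56.8 CPM in the high glucose libraries, against 72.8, 87.3, 76.0 and 74.2 CPM in the low glucose libraries, 1.28-fold lower (adjusted p = 0.00821). Grn, which encodes progranulin, a lysosomal chaperone precursor that binds prosaposin, had 84.7, 86.5, 80.4 and 81.7 CPM in the high glucose libraries, against 96.0, 115, 104 and 108 CPM in the low glucose libraries, 1.27-fold lower (adjusted p = 0.00564). In both genes each high glucose library was below each low glucose library, and Ppt1 and Grn overlap Cap1 and Fam171a2 on the opposite strand.

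Smpd1, acid sphingomyelinase, was the only lipid hydrolase of the list to rise. It had 92.0, 105, 104 and 94.7 CPM in the high glucose libraries, against 75.2, 88.3, 87.5 and 85.3 CPM in the low glucose libraries. The difference was 1.18-fold (adjusted p = 0.0482) and depended on the libraries, since its adjusted p was 0.0537 to 0.137 without any one library other than low glucose replicate 2, and 0.124 with library size alone as scaling. Lipa, the acid lipase of cholesteryl esters, had a log2 fold change of 0.12 ± 0.10 (SE) (adjusted p = 0.421).

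Most cathepsins, the proteases of the lysosome, did not pass. Of the 12 peptidases none rose in edgeR, none was higher at an unadjusted p below 0.05, and DESeq2 and limma-voom called none higher. With the replicate block 2 were higher and 3 lower, beside 18.9% and 18.5% of all genes. Ctso, a cysteine cathepsin, had 72.4, 76.2, 63.9 and 65.5 CPM in the high glucose libraries, against 94.5, 105, 93.3 and 90.0 CPM in the low glucose libraries. The groups did not overlap and the level was 1.38-fold lower in high glucose (log2 fold change -0.46 ± 0.08 (SE), adjusted p = 0.00196). Ctsf, another cysteine cathepsin, had 44.1, 52.4, 49.8 and 48.3 CPM in the high glucose libraries, against 58.7, 78.2, 62.2 and 62.1 CPM in the low glucose libraries, 1.34-fold lower (adjusted p = 0.00955). Tpp1, which removes tripeptides from protein ends, had 48.6, 58.1, 53.1 and 55.1 CPM in the high glucose libraries, against 70.4, 60.4, 71.6 and 65.5 CPM in the low glucose libraries, 1.25-fold lower (adjusted p = 0.0149). Each of the 3 was lower in 4 of 4 same-number pairs.

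The abundant cathepsins did not pass. Ctsd, the aspartic protease and the highest of the peptidases at 122 FPKM with high and 124 FPKM with low glucose, had 271, 317, 279 and 289 CPM in the high glucose libraries, against 263, 383, 265 and 280.1 CPM in the low glucose libraries. Its low glucose values were spread by replicate 2, the high and low libraries overlapped, and the 95% interval of its log2 fold change was -0.31 to 0.23 (adjusted p = 0.837). For Ctsl, another cysteine protease, the log2 fold change was 0.06 ± 0.13 (SE), and its interval was -0.23 to 0.36. Ctsb, a cysteine protease that overlaps Fdft1 on the opposite strand, had 629, 734, 638 and 623 CPM in the high glucose libraries, against 525, 671, 532 and 535 CPM in the low glucose libraries. It was higher in high glucose in 4 of 4 same-number pairs, with adjusted p = 0.154, 0.00747 with the replicate block and 0.0127 without low glucose replicate 2. Ctsz, a carboxypeptidase that overlaps Nelfcd, behaved alike in these fits, with adjusted p = 0.182, 0.00497 and 0.00829. Ctsa, the carboxypeptidase that protects β-galactosidase and neuraminidase, had a log2 fold change of -0.01 ± 0.10 (SE) and overlaps Pltp and Neurl2.

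Ctsh, Ctsc and Ctsk were the least abundant peptidases per length, at 3.86, 3.32 and 1.93 FPKM over all libraries, and Ctss was at 19.1 FPKM. None of the 4 passed, with adjusted p of 0.468 for Ctsh and 0.698 for Ctss. Cathepsin S is best known from macrophages and dendritic cells, and cathepsin K from osteoclasts and fibroblasts. Ctsc, a dipeptidyl peptidase, had 34.9, 20.0, 11.3 and 24.9 CPM in the high glucose libraries, against 14.6, 20.9, 13.0 and 17.1 CPM in the low glucose libraries. Its adjusted p was 0.261, and 0.0426 without high glucose replicate 3, its lowest library. Ctsk had 4.56, 3.48, 3.20 and 1.45 CPM in the high glucose libraries, against 1.82, 4.01, 3.26 and 1.97 CPM in the low glucose libraries, and its groups overlapped over most of their range. High glucose replicate 1, the highest library of both Ctsc and Ctsk in high glucose, also had the highest sum of 9 fibroblast and stellate cell markers, 1542 CPM against 182 to 406 CPM in the other high glucose libraries and 156 to 368 CPM in low glucose. All 9 of these markers had counts in every library and none passed, with 2 higher at an unadjusted p below 0.05. The part of those cells in these values was not tested.

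Both LAMP genes fell. Lamp1 (ENSMUSG00000031447, GRCm38 chromosome 8, 13159161 to 13175338, + strand), whose upstream sequence with 4 E-boxes is shown above, had 554, 654, 600.0 and 569 CPM in the high glucose libraries, against 687, 835, 732 and 755 CPM in the low glucose libraries. The groups did not overlap, and the level was 1.27-fold lower in high glucose (log2 fold change -0.34 ± 0.09 (SE), adjusted p = 0.0163). The adjusted p was 0.0538 without high glucose replicate 1, and Grtp1 overlaps the gene on the opposite strand. Lamp2, which also serves chaperone-mediated autophagy, had 245, 291, 257 and 272 CPM in the high glucose libraries, against 306, 335, 299 and 324 CPM in the low glucose libraries, 1.19-fold lower (adjusted p = 0.041). Its call was lost without any one of 6 libraries, all but high glucose replicate 2 and low glucose replicate 3, with adjusted p of 0.0503 to 0.121.

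The other membrane proteins did not pass. Cd63, a tetraspanin of late endosomes, lysosomes and granules, had 627, 759, 651 and 656 CPM in the high glucose libraries, against 507, 724, 486 and 539.8 CPM in the low glucose libraries. It was higher in high glucose in 4 of 4 same-number pairs, with adjusted p = 0.181, 0.00606 with the replicate block and 0.00524 without low glucose replicate 2. Its processed copy Cd63-ps makes its count uncertain. Laptm4a, at 189 FPKM with high and 175 FPKM with low glucose the third in abundance of the set, had a log2 fold change of 0.10 ± 0.09 (SE), and Laptm4b one of 0.05 ± 0.09 (SE). Mcoln1, the calcium channel TRPML1, stood at -0.17 ± 0.08 (SE) on the log2 scale (adjusted p = 0.134, and 0.0297 without low glucose replicate 2).

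Of the sorting receptors, Sort1 fell and Scarb2 rose. Sort1, sortilin, which carries prosaposin among other cargo (ENSMUSG00000068747, GRCm38 chromosome 3, 108284082 to 108361511, + strand), had 218, 199, 237 and 213 CPM in the high glucose libraries, against 311, 252, 329.6 and 315 CPM in the low glucose libraries. Each high glucose library was below each low glucose library, and the level was 1.39-fold lower (log2 fold change -0.48 ± 0.10 (SE), adjusted p = 0.00463). Scarb2, which encodes the membrane protein LIMP-2 (ENSMUSG00000029426, GRCm38 chromosome 5, 92441314 to 92506833, - strand), had 301, 328, 315 and 299 CPM in the high glucose libraries, against 246, 246, 268 and 254 CPM in the low glucose libraries. The groups did not overlap, and the level was 1.23-fold higher (log2 fold change 0.29 ± 0.07 (SE), adjusted p = 0.00995), with an adjusted p of 0.0505 under library size alone.

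The mannose 6-phosphate receptors did not pass. Igf2r, the cation-independent receptor, had 172, 127, 175 and 175 CPM in the high glucose libraries, against 159, 102, 157 and 154 CPM in the low glucose libraries. It was higher in high glucose in 4 of 4 same-number pairs, with adjusted p = 0.438, 0.018 with the replicate block and 0.0483 without both libraries numbered 2, its lowest library in each group. Airn overlaps it on the opposite strand. M6pr, the cation-dependent receptor, had 169.8 ± 11.8 CPM with high glucose, against 165 ± 17.6 CPM with low glucose, an interval of -0.15 to 0.24 for its log2 fold change, and a processed copy, M6pr-ps.

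**Figure D3:**
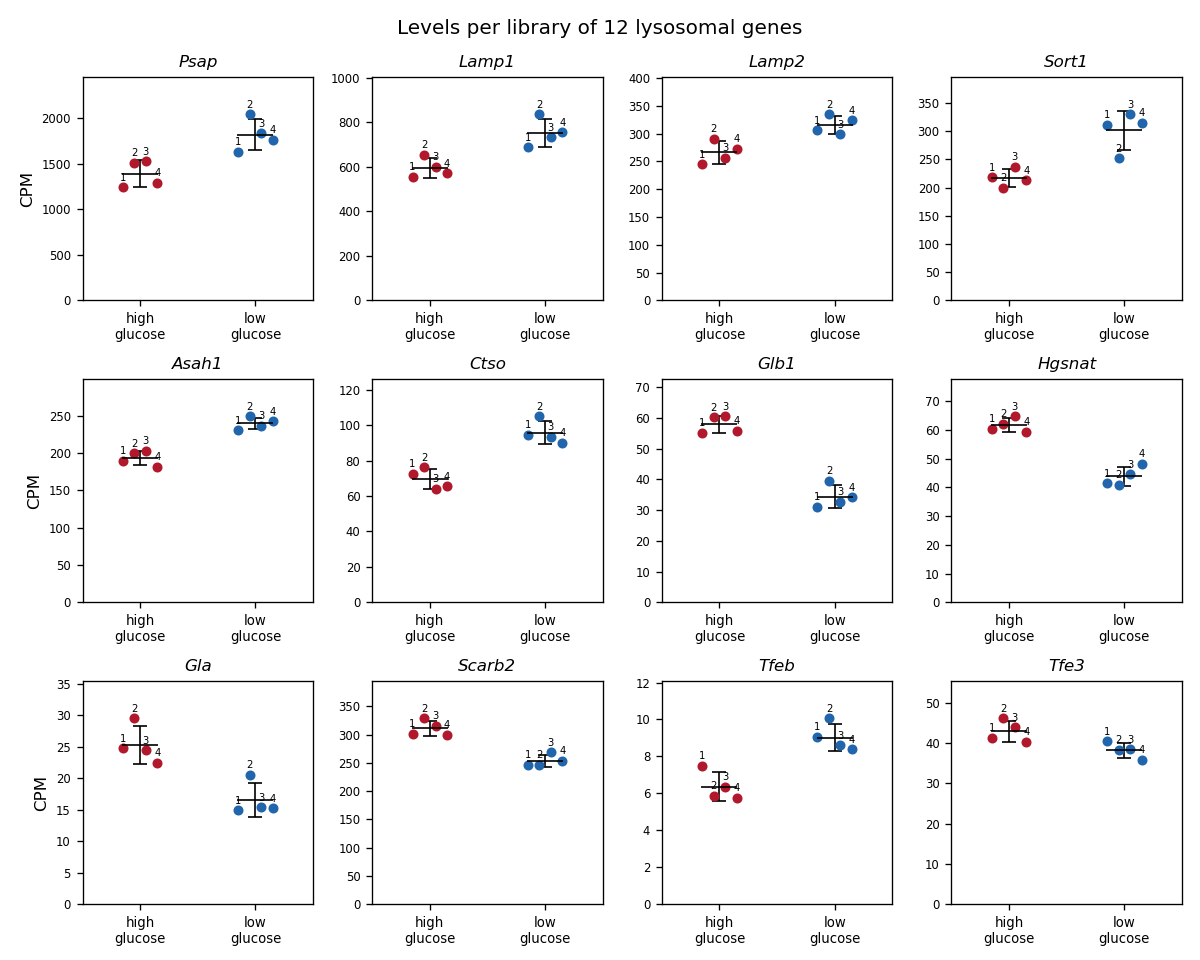
Level in CPM (vertical axis, starting at 0) of 12 lysosomal genes in the 4 high and the 4 low glucose libraries; each dot is a library with its replicate number, and bars are the mean ± SD (n = 4 per group). Except for Tfe3, the high and low glucose libraries of each gene shown do not overlap.

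The libraries numbered 2 were the highest of their groups for 22 of the 41 genes in both groups at once, and the lowest in both for Sort1 and Igf2r. In the high glucose group replicate 2 was highest for 26 genes, and in the low glucose group for 31. The summed β-cell markers were also highest in these libraries, at 273302 CPM in high glucose replicate 2 and 266868 CPM in low glucose replicate 2, against at most 251525 and 201156 CPM in the others of each group, and higher in high glucose in 4 of 4 same-number pairs. Most of that sum was Ins2. High glucose replicate 2 held 189799 CPM of it, and low glucose replicate 2 held 201499 CPM. Slc2a2 and Pdx1 were instead lowest of their group in low glucose replicate 2, and Ins1 was highest in neither library numbered 2. The summed alpha-cell markers and the summed delta and PP markers were likewise highest in both of these libraries, so the pattern was not particular to β-cell markers. The acinar sum was highest in neither. The macrophage and fibroblast sums were highest of their group in low glucose replicate 2 but not in high glucose replicate 2. Of the 9 β-cell markers 2 rose and 3 fell. In bulk islets fewer cells of a type and less RNA per cell cannot be told apart. The summed level of all 41 genes was 7229 to 8217 CPM in the high glucose and 7588 to 9027 CPM in the low glucose libraries, which overlap, and was lower in high glucose in 4 of 4 same-number pairs. As a share of all counts, without TMM scaling, it was 0.717% to 0.771% in the high glucose and 0.803% to 0.863% in the low glucose libraries, which do not overlap. The sum over the 7 lipid genes, most of it Psap, did not overlap, at 1728 to 2034 CPM in the high glucose and 2177 to 2665 CPM in the low glucose libraries.

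**Figure D4:**
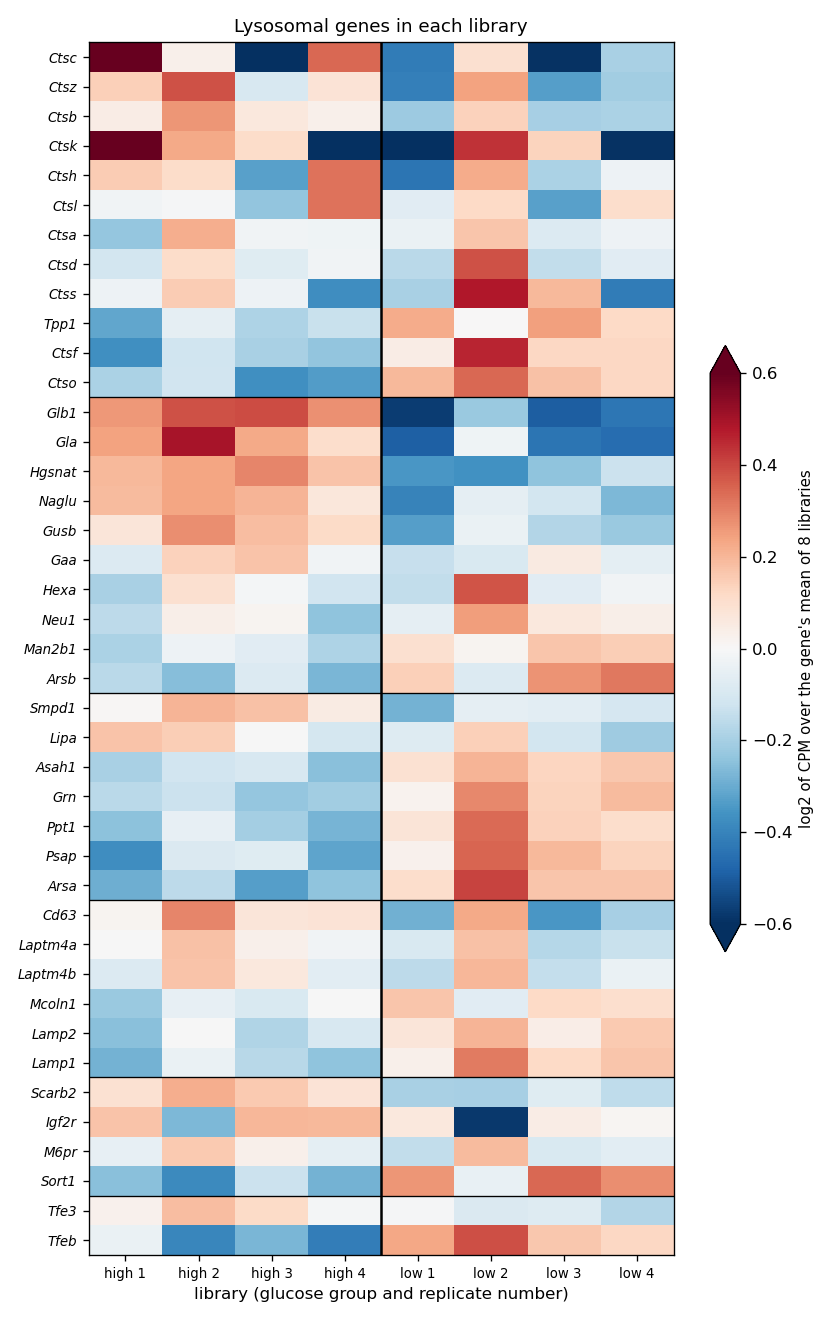
Log2 of the CPM over the gene's mean of the 8 libraries (colour, limited to 0.6 either way) for the 41 lysosomal genes (rows, grouped by role) in each library (columns, high glucose left). Low glucose replicate 2 is the highest library of its group in 31 rows and high glucose replicate 2 in 26.

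Markers of other cell types had counts in every library. The 12 macrophage markers summed to 242 to 359 CPM in the high glucose and 277 to 452 CPM in the low glucose libraries, and none passed in edgeR, with 2 past an unadjusted p below 0.05. DESeq2 called 1 of them higher, limma-voom none, and the replicate block 2 higher and 3 lower. Their most abundant genes were Lyz2, at 135 ± 30.8 CPM with high glucose, against 138 ± 37.4 CPM with low glucose, and C1qa, at 95.7 ± 16.4 CPM with high glucose, against 113 ± 25.9 CPM with low glucose. The 12 acinar markers summed to 3395 to 18072 CPM in the high glucose and 1195 to 10217 CPM in the low glucose libraries, higher in high glucose in 4 of 4 same-number pairs. None of them passed in edgeR, at an unadjusted p below 0.05, in DESeq2 or in limma-voom, and 7 rose with the replicate block. Alpha-cell markers summed to 12809 to 25476 CPM in the high glucose and 14282 to 29468 CPM in the low glucose libraries, most of it Gcg, which did not pass. Of these 6 markers 2 rose and 0 fell in edgeR, beside 13.1% and 11.9% of all genes. Gc was 6.02-fold higher (adjusted p = 6.77e-06) and Ttr 1.65-fold higher (adjusted p = 0.0216). For Ttr the adjusted p was 0.0611 without high glucose replicate 2. It was 0.0666, 0.0554 and 0.0534 without low glucose replicates 1, 3 and 4 in turn. The part of these cells in the lysosomal values was not tested.

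Beyond the 41 genes, 82 of 86 further lysosomal genes were tested, of which 9 rose and 20 fell, 10.98% and 24.4% beside 13.1% and 11.9% of all genes, and the median of their log2 fold changes was -0.10. The count that rose was 15 with the replicate block, and also 15 without low glucose replicate 2, when 16.8% of all genes rose. Of 31 hydrolases and activators 6 rose and 8 fell. Galns, which acts with Glb1 on keratan sulfate, had 48.8, 54.9, 45.1 and 46.6 CPM in the high glucose libraries, against 23.4, 28.9, 24.9 and 24.3 CPM in the low glucose libraries, 1.93-fold higher (adjusted p = 5.43e-05). The nuclease gene Pld3 rose 1.36-fold (adjusted p = 0.00384). Manba, β-mannosidase, was 1.64-fold lower (adjusted p = 7.01e-05), Naaa, an amidase of ethanolamides, 1.56-fold lower (adjusted p = 0.00225), and Sumf1, which activates the sulfatases, 1.63-fold lower (adjusted p = 8.29e-05). Sumf1 overlaps Rpl36-ps12.

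Of 22 further membrane proteins 2 rose and 4 fell (9.09% and 18.2%, near the 13.1% and 11.9% of all genes). Mcoln3, a relative of Mcoln1, was at 0.89 ± 0.0771 CPM with high glucose, against 3.84 ± 0.738 CPM with low glucose, 4.29-fold lower on few reads, 16 to 24 in each high glucose library and 65 to 104 in each low glucose library (adjusted p = 9.22e-05). Clcn7, the chloride exchanger, and Pip4p1, a phosphatase gene that overlaps Apex1, were 1.31-fold and 1.41-fold lower, while the transporters Abcb9 and Atp13a2 rose 1.39-fold and 1.38-fold. Of 13 genes that deliver hydrolases 1 rose and 2 fell (7.69% and 15.4%, also near those shares). Gnptg, a subunit of the enzyme that attaches the mannose 6-phosphate tag, rose 1.40-fold (adjusted p = 0.00685) and overlaps Unkl. Nagpa, the enzyme that uncovers the tag, was 1.43-fold lower (adjusted p = 0.0179, and 0.0502 without high glucose replicate 3). Gga2, an adaptor of the tag's receptors, was 1.26-fold lower (adjusted p = 0.00373). The cathepsin inhibitors Cst3, Cstb and Cst6 did not pass, and none was past an unadjusted p below 0.05 in edgeR. DESeq2 and limma-voom called none of them, and the replicate block called 1 higher.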

How the data were processed

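Per the labels' protocols, the NEBNext Ultra RNA kit was used on islet RNA. STAR 2.5, HTSeq 2 and DESeq2 are named with the build mm10 (GRCm38), per the submitters' processing notes. For the strand setting and the annotation release, the sources used here name nothing. The authors deposited read counts per gene, per the file headers, which are whole numbers and were the input of every test. The deposited FPKM values divide counts by gene length and 1 total per library, and were used only for levels between genes. The deposited signal per gene is the count after division by each library's own size factor, and was not tested. The authors' log2 fold change and p-value columns were compared with the present fit: the authors' deposited table gives an adjusted p under 0.05 for the same 21 of the 41 genes.

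The test was that of edgeR 4.0.16 under R 4.3.3 (TMM scaling, filterByExpr with minimum count 10 and minimum total 15, quasi-likelihood test with the group as term, Benjamini-Hochberg adjustment over 15442 genes, threshold 0.05). SE is the log2 fold change over the square root of F. DESeq2 1.42.0 and limma-voom (limma 3.58.1), other scalings, no filter, a replicate block and left-out libraries were alternatives. The pipeline was tested on simulated counts. A floor of 3 counts equals 0.114 to 0.161 CPM and covers counting error only. No 2 libraries agreed within sampling noise (chi-square per gene at least 14.1). Replicate numbers come from the labels, which do not say what they mark. Deviations from the group means correlated between same-number libraries at 0.101, 0.449, 0.404 and 0.475 over 15442 genes, each above 0.1. The numbers were therefore used to count same-number pairs and as a block in an alternative fit. The main test, on which "rose" and "fell" rest unless the block is named, had the group as its only term. Low glucose replicate 1 correlated more with high glucose replicate 4 (0.207).

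The 41 genes and the gene lists were chosen with earlier results of these data known. Values per library are given for genes that passed, for Tfeb, Tfe3 and Lamp1, and for the most abundant gene of each role. Of each further lysosomal list up to 3 passing genes per direction are named by adjusted p, and of marker lists the 2 most abundant. Any other gene given in full was chosen after its values were seen. Tmem55b was matched as Pip4p1. Of the genes this rule names, 1 is not reported here.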

Additional observations from a re-analysis of the deposited data

Results flagged for a closer look

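Within each group of 4 libraries, the levels of the named genes were examined for a library far from the other 3, taken as a gap to its nearest neighbour past Dixon's 95% critical value for 4 values, as a share of the range of the group. Of 148 such groups 11 met this, where chance gives about 1 in 20. Ctsb was highest in high glucose replicate 2, at 734 CPM beside 623 to 638 CPM in the other 3 libraries, a gap of 0.865 of the range. Ctsb was highest in low glucose replicate 2, at 671 CPM beside 525 to 535 CPM in the other 3 libraries, a gap of 0.928 of the range. Ctsd was highest in low glucose replicate 2, at 383 CPM beside 263 to 280.1 CPM in the other 3 libraries, a gap of 0.853 of the range. Gla was highest in low glucose replicate 2, at 20.5 CPM beside 14.9 to 15.4 CPM in the other 3 libraries, a gap of 0.911 of the range. Igf2r was lowest in high glucose replicate 2, at 127 CPM beside 172 to 175 CPM in the other 3 libraries, a gap of 0.94 of the range. Igf2r was lowest in low glucose replicate 2, at 102 CPM beside 154 to 159 CPM in the other 3 libraries, a gap of 0.905 of the range. Ins1 was lowest in low glucose replicate 4, at 25223 CPM beside 35851 to 36359 CPM in the other 3 libraries, a gap of 0.954 of the range. Ins2 was highest in low glucose replicate 2, at 201499 CPM beside 130925 to 142154 CPM in the other 3 libraries, a gap of 0.841 of the range. Ttr was highest in high glucose replicate 2, at 1654 CPM beside 1144 to 1191 CPM in the other 3 libraries, a gap of 0.907 of the range. C1qa was highest in low glucose replicate 2, at 152 CPM beside 98.0 to 104 CPM in the other 3 libraries, a gap of 0.883 of the range. Col3a1 was highest in high glucose replicate 1, at 369.9 CPM beside 45.4 to 92.2 CPM in the other 3 libraries, a gap of 0.856 of the range.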

How the results depend on the processing

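All 21 lysosomal genes that changed kept their direction in each of the 15 alternatives run, and 13 of them stayed past the threshold in every one. The replicate block took away no call among the 41 genes and added 5 (Cd63, Ctsb, Ctsz, Igf2r and Neu1). With the block, 11 of the 41 genes rose, 15 further lysosomal genes rose, and 2862 genes of all those tested fell, against 7, 9 and 1831 without it. Without both libraries numbered 2, added after the data were seen, 11 of the 41 and 15 of the further genes rose. Leaving out 1 library at a time gave 6 to 10 genes that rose and 9 to 14 that fell among the 41, 6 to 15 and 17 to 21 among the further lysosomal genes, and 1617 to 2656 and 1382 to 2476 over all genes. With library size alone as scaling 1602 genes rose and 2636 fell over all genes, against 2023 and 1831 with TMM, the median of all genes moved by -0.08 (log2), and 5 of the 41 rose and 15 fell. The cause of these changes was not tested. The 8 genes that lost their call in at least 1 alternative were Psap, Lamp1, Lamp2, Smpd1, Man2b1, Arsb, Scarb2 and Tfeb. Without the filter on low counts the adjusted p was 0.0756 for Lamp2, 0.0883 for Smpd1 and 0.0791 for Man2b1. These 3 had the smallest changes among the 21 genes, 1.19-fold, 1.18-fold and 1.17-fold. Tfeb, at 5.77 to 10.1 CPM per library, had the fewest reads of the 21.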
